A study of Mus musculus with 18 samples.

Results

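Foxj1, Tmem212, Ccdc153, Rsph1, Dynlrb2, Rarres2 and Dnaaf1 are genes of ependymal cells and motile cilia, and they were followed by symbol through the 18 count tables of the study. All 7 symbols were found, among 23238 distinct symbols per table. The study gave urban particulate matter (UPM, the reference dust SRM 1648a, in PBS) through the nose to male C57BL/6 mice that were 7 weeks old at the start. Short-term mice received it daily, for 3, 5 or 7 days; long-term mice had 2 doses per week, over a span of 3 weeks or of 8, 12, 16 or 20 weeks, and control mice received PBS as vehicle. From hippocampus and from cortex, 1 library was made per exposure time and 1 for the control, from RNA pooled over the mice of a group. The time at which the controls were taken is not given, so age, dosing rhythm, total dose and exposure time cannot be told apart. Each tissue thus had 3 short-term, 5 long-term and 1 control library, and the tests take libraries of different exposure times as replicates.

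Ependymal cells are the ciliated epithelium that lines the brain ventricles, and the beating of their motile cilia moves cerebrospinal fluid along the walls. A motile cilium is built on a ring of microtubule doublets whose dynein arms produce the beat, with radial spokes that relay signals between the central pair and the arms. The hippocampus lies against the lateral ventricle, so ventricular lining and choroid plexus, which both carry cilia, can be taken with it during dissection. Foxj1 encodes the forkhead transcription factor that switches on the motile cilium programme. Rsph1 encodes a part of the radial spoke head, Dynlrb2 a roadblock-type light chain of dynein, and Dnaaf1 a cytoplasmic factor that assembles dynein arms before they enter the cilium. Tmem212 (a membrane protein) and Ccdc153 (a coiled-coil protein) serve as ependymal markers in mouse brain. Rarres2 encodes chemerin, a secreted chemoattractant that is no cilium component and is used as an ependymal marker.

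Promoters of motile cilium genes are known to be bound by RFX factors at the X-box, whose half-site reads GTTGCC, and by FOXJ1, for which GTAAACA is a common forkhead site. The RefSeq promoter table of build GRCm38.p6 held 3 of the 7 genes, and the stretch from base -160 to base -45 before the transcription start is printed for these, 5′ to 3′ on the gene's strand, to show whether the half-site is there. Capitals mark GTTGCC.
Ccdc153 (chr9:44240517-44240632, plus strand): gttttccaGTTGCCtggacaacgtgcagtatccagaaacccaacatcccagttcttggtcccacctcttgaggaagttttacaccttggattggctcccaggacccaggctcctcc
Dynlrb2 (chr8:116504855-116504970, plus strand): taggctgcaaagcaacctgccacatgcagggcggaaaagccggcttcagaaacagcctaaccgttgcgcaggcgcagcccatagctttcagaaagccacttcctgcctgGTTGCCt
Tmem212 (chr3:27896413-27896528, minus strand): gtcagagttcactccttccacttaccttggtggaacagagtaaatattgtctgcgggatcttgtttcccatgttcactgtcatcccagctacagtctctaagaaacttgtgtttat
In windows of 300 bases (250 before to 50 after the start) searched on both strands, GTTGCC stood at bases -152 to -147 of Ccdc153 and at bases -51 to -46 of Dynlrb2, and was not in the window of Tmem212. It was in 12.5% of all 32851 windows, so a match in 2 of 3 genes is only a description. GTAAACA was in none of the 3 windows and in 3.65% of all windows.

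The genes lie apart in the genome of mm10 (GRCm38), per the GENCODE M21 annotation. Foxj1 is at chr11:116330704-116335399 on the minus strand, Tmem212 at chr3:27866066-27896368 (minus), Ccdc153 at chr9:44240676-44247306 (plus), and Rsph1 at chr17:31255019-31277383 (minus). Dynlrb2 is at chr8:116504974-116515915 (plus), Rarres2 at chr6:48569696-48572789 (minus), and Dnaaf1 at chr8:119575235-119598454 (plus). The libraries count reads near the 3′ end of transcripts, and 3 of the genes share that end with a gene on the other strand. Dnaaf1 overlaps Taf1c (a subunit of the RNA polymerase I factor SL1) over 584 bases, Rarres2 overlaps Lrrc61 over 1027 bases, and Rsph1 overlaps the antisense gene AC154652.1 over 2960 bases. Dnaaf1 and Taf1c had the same count in 13 of 18 libraries and never differed by more than 3 counts, with 708 and 703 counts in all. What is called Dnaaf1 below can therefore not be told apart from Taf1c. Rarres2 had 0.121 to 0.468 times the counts of Lrrc61, so these 2 genes were not given the same reads throughout, and the strand setting of the counting is not given in the sources used here.

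The libraries held 5434067 to 8967430 counts, so 1 count equals 0.112 to 0.184 CPM (a gene's count relative to the library's total count, on the usual scale), and the limit that a count of 0 allows (3 counts) equals 0.335 to 0.552 CPM. The 7 genes were low: their total over 18 libraries went from 215 counts for Tmem212 to 1016 counts for Foxj1. The tissue labels matched the neuronal markers, since all 10 genes of hippocampal neurons were higher in hippocampus than in cortex and 8 of 10 genes of cortical neurons were lower (edgeR, adjusted p under 0.05). Columns of the control and 8 to 20 week libraries were named in 1 way and those of 3 days to 3 weeks in another. These 2 sets of libraries also differed in content. Rn45s, the ribosomal RNA precursor, held 7.75% to 12.9% of the counts in the control and 8 to 20 week libraries, against 14.8% to 18.6% at 3 days to 3 weeks. The long non-coding RNA Meg3 had 6558 to 13214 CPM in the control and 8 to 20 week libraries, against 1099 to 2569 CPM at 3 days to 3 weeks. Long-term against short-term UPM runs across the 2 sets, and the part of this difference in its results was not tested.

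All CPM values below are scaled with the TMM factors of edgeR. Foxj1 was highest in hippocampus after 8 to 20 weeks. In hippocampus it had 6.68 CPM in the control and, after UPM, 6.98 CPM at 3 days, 7.15 at 5 days, 9.22 at 7 days, 4.41 at 3 weeks, 13.8 at 8 weeks, 13.1 at 12 weeks, 11.2 at 16 weeks and 11.1 at 20 weeks. In cortex it had 7.13 CPM in the control and 8.10, 3.43, 2.32, 5.81, 5.14, 6.93, 3.38 and 5.02 CPM at the same times. The 4 hippocampal libraries of 8 to 20 weeks (12.3 ± 1.36 CPM, SD, n = 4) were above all other 14 libraries, and the controls of the 2 tissues were close to each other. Of the 7 genes only Foxj1 separated these 4 libraries from the other 14, which 0.651% of the 13523 genes with a mean of at least 10 counts did in this direction.

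**Figure D1:**
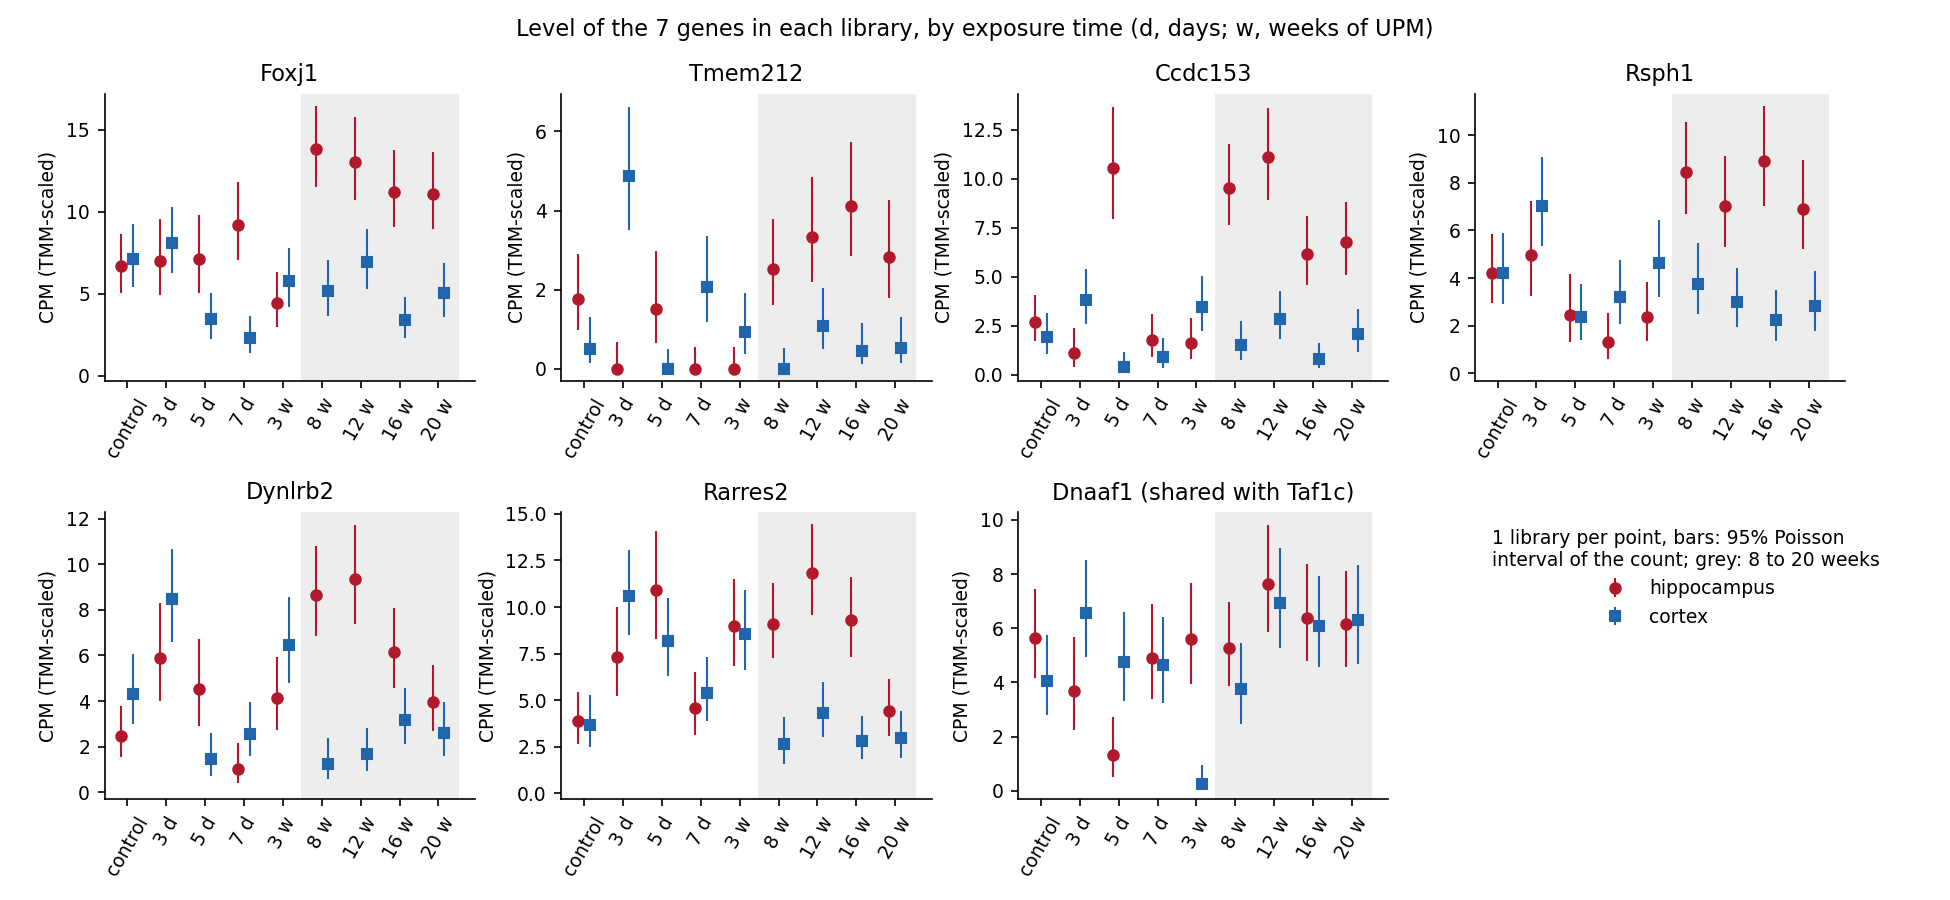
CPM (TMM-scaled, vertical axis) of the 7 genes in hippocampus (circles) and cortex (squares) by exposure time in days (d) or weeks (w) of UPM (horizontal axis), 1 library per point, with the 95% Poisson interval of its count. In the grey range, 8 to 20 weeks, hippocampal points lie above all cortical points of that range for every gene except Dnaaf1, whose counts are shared with Taf1c; 10.2% of the 13523 genes do the same.

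Among the structural genes, Rsph1 followed the same pattern. In hippocampus it had 4.22 CPM in the control and 4.96, 2.45, 1.34, 2.35, 8.45, 7.03, 8.93 and 6.90 CPM at the 8 exposure times from 3 days to 20 weeks. In cortex the control had 4.20 CPM and the exposed libraries 7.03, 2.38, 3.22, 4.62, 3.75, 2.99, 2.25 and 2.83 CPM in the same order. All hippocampal libraries of 8 to 20 weeks were above the other 5 hippocampal libraries, as for Foxj1 and Tmem212 and for 4.1% of the 13523 genes, and all cortical ones of 8 to 20 weeks were below the cortical control. The 3-day cortical library, at 7.03 CPM, reached the level of the 12-week hippocampal library.

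Dynlrb2, the dynein light chain, was highest at 12 weeks and dropped towards 20 weeks in hippocampus. It had 2.46 CPM in the hippocampal control and 5.88, 4.51, 1.04, 4.12, 8.67, 9.37, 6.15 and 3.95 CPM at the exposure times from 3 days to 20 weeks. In cortex it had 4.33 CPM in the control and 8.46, 1.45, 2.58, 6.47, 1.25, 1.67, 3.16 and 2.58 CPM. Hippocampal values of 8 to 20 weeks overlapped those of 3 days to 3 weeks, and the 3-day cortical library was again among the highest. The cytoplasmic dynein light chain Dynlrb1, its paralog, had far more reads, with a Dynlrb2 to Dynlrb1 count ratio of 0.00437 to 0.0531.

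The ependymal markers Tmem212 and Ccdc153 had fewer than 20 counts in several libraries of each tissue. Tmem212 had 15 counts in the hippocampal control and 0, 8, 0, 0, 23, 27, 34 and 23 counts at the 8 exposure times from 3 days to 20 weeks, and 4 counts in the cortical control and 41, 0, 16, 7, 0, 9, 4 and 4 counts at those times. It was at 0 in 5 of 18 libraries, and its highest level was in cortex at 3 days, 4.89 CPM. The 4 hippocampal libraries of 8 to 20 weeks, 2.52 to 4.10 CPM, were above the other 5 of that tissue. Ccdc153 had 2.70 CPM in the hippocampal control and 1.10, 10.5, 1.78, 1.62, 9.55, 11.1, 6.15 and 6.78 CPM at the exposure times, and 1.91 CPM in the cortical control and 3.81, 0.396, 0.902, 3.43, 1.53, 2.87, 0.789 and 2.06 CPM. The 5-day hippocampal library, with 56 counts, was as high as those of 8 and 12 weeks and stood apart from its neighbours in time, which had 6 and 12 counts.

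Rarres2, the gene of chemerin, was above its control in all libraries of 3 days to 3 weeks in both tissues. How many of all genes do the same was not counted. By column name these libraries are not of the set of the controls, so UPM and set cannot be told apart here. In hippocampus it had 3.87 CPM in the control and 7.35, 10.9, 4.61, 8.97, 9.11, 11.8, 9.29 and 4.44 CPM from 3 days to 20 weeks. In cortex it had 3.69 CPM in the control and 10.6, 8.19, 5.41, 8.58, 2.64, 4.30, 2.82 and 2.96 CPM. At 3 days to 3 weeks it averaged 7.96 ± 2.67 CPM in hippocampus and 8.20 ± 2.14 CPM in cortex (SD, n = 4 each), with the 7-day library lowest in each tissue. In hippocampus the libraries of 8 to 16 weeks were at 9.11 to 11.8 CPM and the 20-week library was near the control. Dnaaf1 (shared with Taf1c) showed no such pattern: it had 5.63 CPM in the hippocampal control and 3.67, 1.32, 4.91, 5.59, 5.27, 7.64, 6.40 and 6.16 CPM at the exposure times, and 4.07 CPM in the cortical control and 6.55, 4.75, 4.64, 0.264, 3.75, 6.93, 6.09 and 6.31 CPM. Its lowest value, in cortex at 3 weeks, came from 2 counts.

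Hippocampus was set against cortex with exposure time as a factor, 9 libraries each. Over all 18 libraries Foxj1 was the gene of the 7 that passed: it averaged 9.30 ± 3.21 CPM in hippocampus and 5.25 ± 1.94 CPM in cortex (SD, n = 9 each), a log2 fold change of 0.84 ± 0.25 (SE) with an edgeR adjusted p of 0.0265. That is 1 of 6 genes tested, beside 8.39% of all 13362 genes called higher in hippocampus. Ccdc153 had 1.41 ± 0.51 (adjusted p = 0.0676), Rarres2 0.59 ± 0.25 (0.127), Dynlrb2 0.56 ± 0.40 (0.386), Rsph1 0.40 ± 0.33 (0.461) and Dnaaf1 0.18 ± 0.35 (0.791) in the same fit, and Tmem212 was too low to be tested. The call of Foxj1 was marginal: it was lost, with adjusted p up to 0.0748, when the hippocampal library of 5 or 7 days, the cortical library of 7 days, or the library of 8, 12, 16 or 20 weeks of either tissue was left out. Ccdc153 was called in addition to Foxj1 without the 3-day or the 3-week library of either tissue (adjusted p = 0.0149 to 0.0288).

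The tissue comparison was also made within each set of libraries. In the control and 8 to 20 week libraries 5 of 7 genes were higher in hippocampus, beside 9.74% of all 13625 genes. Tmem212, which is among these, had 0 to 9 counts in cortex and entered the test only through hippocampus, so its call adds nothing to the count, which is 4 of 6 without it. Ccdc153, with 7 to 24 counts in cortex, entered with the help of hippocampal libraries, so this count is only a description. Foxj1 averaged 11.2 ± 2.78 CPM in hippocampus and 5.52 ± 1.54 CPM in cortex (SD, n = 5 each), a log2 fold change of 1.02 ± 0.23 with an edgeR adjusted p of 0.00893. Rsph1 averaged 7.11 ± 1.84 CPM in hippocampus and 3.21 ± 0.771 CPM in cortex (1.14 ± 0.26, adjusted p = 0.00965). Ccdc153 averaged 7.26 ± 3.25 and 1.83 ± 0.760 CPM in these tissues (1.95 ± 0.31, adjusted p = 0.0011). Tmem212 had 2.91 ± 0.877 and 0.510 ± 0.382 CPM (2.52 ± 0.46, adjusted p = 0.00242), and Rarres2 7.71 ± 3.43 and 3.28 ± 0.695 CPM (1.16 ± 0.27, adjusted p = 0.00965), hippocampus before cortex. Dynlrb2, at 1.18 ± 0.43, did not pass (adjusted p = 0.076), nor did Dnaaf1 at 0.22 ± 0.18 (0.433). Without the 12-week library of hippocampus or of cortex, Rarres2 lost its call (adjusted p = 0.0566 and 0.0509). Without the control of hippocampus or of cortex, Dynlrb2 was called (adjusted p = 0.00761 and 0.00822). This split was chosen after the data were seen.

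Within the libraries of 3 days to 3 weeks none of the 6 genes tested was called by edgeR, beside 4.87% of all 13053 genes called in either direction and 2.41% called higher in hippocampus. Their log2 fold changes, hippocampus over cortex, were 0.59 ± 0.47 for Foxj1, 0.45 ± 0.99 for Ccdc153, 0.10 ± 0.78 for Dnaaf1, -0.05 ± 0.32 for Rarres2, -0.22 ± 0.55 for Dynlrb2 and -0.65 ± 0.52 for Rsph1. The difference of the tissue effect between the 2 sets of libraries was tested as well. It was largest against its error for Rsph1, 1.80 ± 0.49 (edgeR adjusted p = 0.234), and was 1.20 ± 0.41 for Rarres2 (0.306) and 0.45 ± 0.50 for Foxj1 (0.775). Ccdc153 had 1.46 ± 1.01 (0.599), Dynlrb2 1.41 ± 0.74 (0.501) and Dnaaf1 0.14 ± 0.75 (0.966). Tmem212, at 0 counts in 5 of 18 libraries, had 5.12 ± 1.71 (0.306). No gene passed in that test, of the 7 or of all 14249 (0%), while 1593 genes were below 0.05 before adjustment, so the sets are not shown to differ in this respect.

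**Figure D2:**
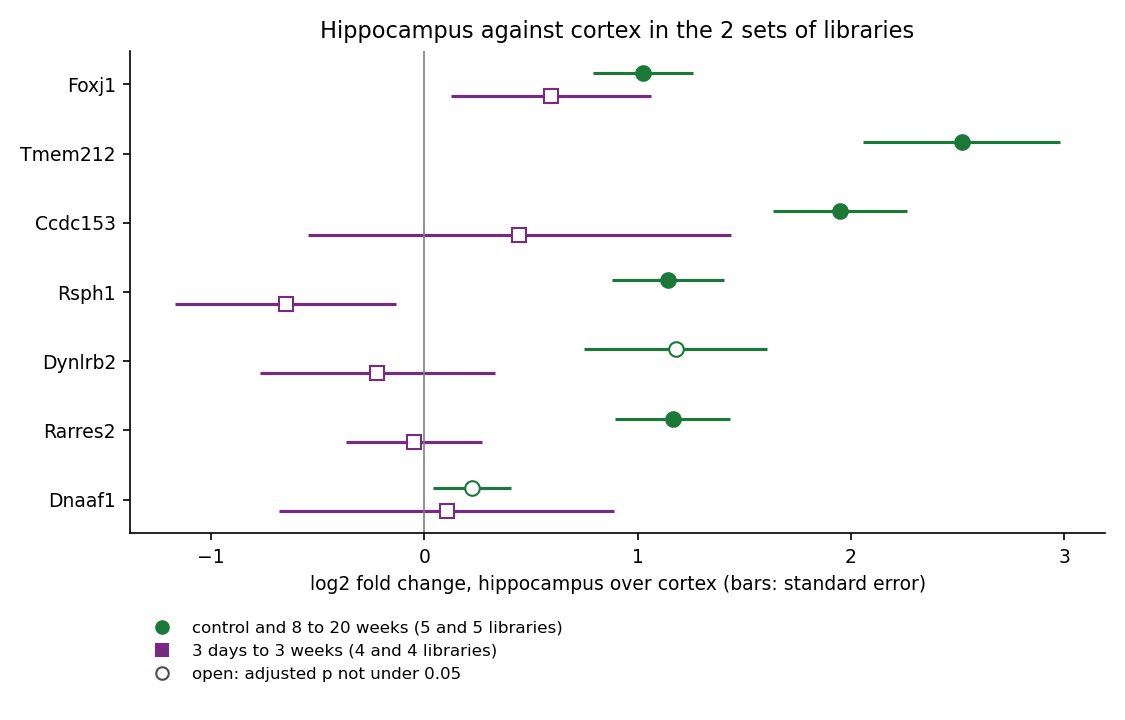
Log2 fold change of hippocampus over cortex (horizontal axis, bars standard error) for each gene in the control and 8 to 20 week libraries (circles, 5 libraries per tissue) and in the libraries of 3 days to 3 weeks (squares, 4 per tissue), with filled symbols for an adjusted p under 0.05. Filled circles mark 5 genes and no square is filled; Tmem212 was too low to be tested at 3 days to 3 weeks.

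Exposure against vehicle can be tested over both tissues together, since each tissue has 1 control. With all 16 exposed libraries against the 2 controls, and tissue as a covariate, none of the 7 genes was called by edgeR, nor was any of 14865 genes (0%; 272 genes had an unadjusted p below 0.05). With the 8 libraries of 8 to 20 weeks against the controls, again no gene passed of 14465 (0%, 676 unadjusted). That pooled test averages over tissues in which 5 of the genes had fold changes of opposite sign. In hippocampus all 4 libraries of 8 to 20 weeks were above the control for 6 of the 7 genes, all but Dnaaf1, a pattern that 20.6% of the 13523 genes with a mean of at least 10 counts showed. In cortex all 4 were below the control for Foxj1, Rsph1 and Dynlrb2, beside 20.7% of genes. Those same 3 genes combined both patterns, beside 4.81% of genes.

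Tissue by tissue, the test is 4 libraries against 1 control whose spread is assumed to be that of the exposed libraries. In hippocampus the log2 fold changes of 8 to 20 weeks of UPM over control were 0.89 ± 0.26 for Foxj1 (edgeR adjusted p = 0.745), 0.90 ± 0.31 for Rsph1 (0.786), 1.52 ± 0.54 for Dynlrb2 (0.786), 1.64 ± 0.44 for Ccdc153 (0.721), 0.86 ± 0.49 for Tmem212 (0.822), 1.17 ± 0.51 for Rarres2 (0.791) and 0.18 ± 0.31 for Dnaaf1 (0.945). None passed, beside 0.0203% of 14787 genes. In cortex they were -0.48 ± 0.38 for Foxj1, -0.51 ± 0.46 for Rsph1, -0.99 ± 0.54 for Dynlrb2, -0.08 ± 0.71 for Ccdc153, -0.21 ± 0.47 for Rarres2 and 0.50 ± 0.41 for Dnaaf1, and none passed (lowest edgeR adjusted p = 0.926), beside 0.0491% of 14266 genes.

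The difference between the tissues in that contrast, hippocampus minus cortex, was 2.50 ± 0.77 for Dynlrb2 (edgeR adjusted p = 0.556), 1.41 ± 0.49 for Rsph1 (0.629), 1.37 ± 0.46 for Foxj1 (0.619), 1.72 ± 0.82 for Ccdc153 (0.735), 1.38 ± 0.68 for Rarres2 (0.739), 0.83 ± 1.35 for Tmem212 (0.919) and -0.32 ± 0.51 for Dnaaf1 (0.916). It is larger than its error for 5 of the genes and passed for none, beside 0.106% of 15037 genes. All these differences rest on 1 control library per tissue. In bulk samples, fewer cells of a type and less RNA per cell cannot be told apart.

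Long-term UPM was also set against short-term UPM as the labels class them, with 5 and 3 libraries. Leaving Tmem212 aside, the log2 fold changes in hippocampus went from 0.20 ± 0.36 for Rarres2 (edgeR adjusted p = 0.791) to 1.22 ± 0.51 for Rsph1 (0.196). Tmem212 had 2.38 ± 1.24 (0.282). With 0 to 8 counts in the short-term libraries it entered the test only through the long-term ones, so its sign and size add nothing. None passed, beside 0.273% of 13908 genes called in either direction. The 3-week library is long-term by label and of the other set by its column name. Without it Rsph1 had 1.44 (adjusted p = 0.0417), beside 16.3% of 13861 genes called (2254), and the comparison then fell together with the set. In cortex the fold changes went from -0.93 ± 0.40 for Rarres2 (0.211) to 0.30 ± 0.67 for Ccdc153 (0.828), and none of the 6 tested genes nor any of 13762 genes passed (0%, 2921 unadjusted). Without the 3-week library of cortex Rarres2 had -1.35 (adjusted p = 0.00899), beside 22.6% of 13657 genes called (3093). The difference between tissues in this contrast passed for none of the 7 (0% of 14427 genes, 1124 unadjusted), and was 1.58 ± 0.67 for Rsph1 (0.579) and 1.12 ± 0.57 for Rarres2 (0.658).

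Other genes of the motile cilium, 102 in the tables, were counted by role. In the control and 8 to 20 week libraries 69 were tested, of which 18 were higher and 2 lower in hippocampus than in cortex, beside 9.74% of all genes called higher and 20.5% in either direction. They had a median log2 fold change of 0.41 against 0.02 over all genes. Genes low in 1 tissue could enter this test through the other alone, so these counts and the median are only a description. Trp73, with 0 to 8 counts in these cortical libraries, and Cfap126, with 3 to 13, entered only through hippocampus, so their calls add nothing. Hydin, with 8 to 21 counts there, entered with the help of hippocampal libraries, so its call is only a description. Among regulators, Trp73, a transcription factor of multiciliated cells, had 2.59 ± 0.51 (edgeR adjusted p = 0.00389) and Rfx3, an X-box binding factor, 0.91 ± 0.10 (0.000114). Of the axonemal dyneins Dnah9, an outer arm heavy chain, had 2.01 ± 0.24 (0.000157), and Dnali1, an inner arm light chain, was lower with -0.29 ± 0.08 (0.0199). In the radial spoke and central pair list 4 of 9 were higher, among them Rsph9 (0.70 ± 0.13, adjusted p = 0.00287) and the central pair gene Hydin (1.82 ± 0.36, 0.0039). The assembly factor Lrrc6 was lower (-0.98 ± 0.12, 0.000226), and of 28 other motile cilium genes 9 were higher, led by Cfap44 (1.86 ± 0.24, 0.000244), Fam183b (1.60 ± 0.29, 0.00209) and Cfap126 (2.19 ± 0.41, 0.00276). At 3 days to 3 weeks 52 were tested, with 1 higher and 1 lower, beside 2.41% of all genes called higher and 4.87% in either direction, and a median of -0.11.

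Dnah9 and Hydin, picked after their values were seen, show 2 kinds of profile. Dnah9 had 6.58 to 18.4 CPM in the 8 exposed hippocampal libraries and 13.2 CPM in the hippocampal control, and 1.45 to 4.77 CPM in the exposed cortical libraries and 3.18 CPM in the cortical control. All its hippocampal libraries were above all cortical ones, the control included, and how many of all genes do the same was not counted. Hydin was highest in hippocampus at 8 to 20 weeks: it had 23 counts in the hippocampal control and 2, 8, 0, 14, 63, 71, 36 and 49 counts at the 8 exposure times from 3 days to 20 weeks, and 21 counts in the cortical control and 5, 0, 4, 11, 9, 13, 8 and 12 counts.

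Against the control of hippocampus, 8 to 20 weeks of UPM gave a positive fold change in 73 of 85 other motile cilium genes tested, with a median of 0.63 against 0.02 over all genes, and none passed the test. In cortex 27 of 70 were positive, with a median of -0.16 against 0.00 over all genes. With 1 control, a low gene could enter these fits through a single library, also an exposed one in which it was high. These counts and the medians by role are therefore only a description, and the share of positive fold changes over all genes was not counted. By role, the hippocampal medians were 0.97 for axonemal dyneins, 0.94 for other motile cilium genes, 0.59 for radial spoke and central pair, 0.35 for docking and the nexin-dynein regulatory complex (N-DRC), 0.15 for assembly factors and -0.04 for multiciliation regulators. Genes of the primary cilium and intraflagellar transport (IFT), which neurons and astrocytes also use, had a median of -0.06, with 12 of 30 positive. Of the 63 other motile cilium genes with a mean of at least 10 counts, 31 had all 4 hippocampal libraries above the control, beside the 20.6% of all such genes given above.

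**Figure D3:**
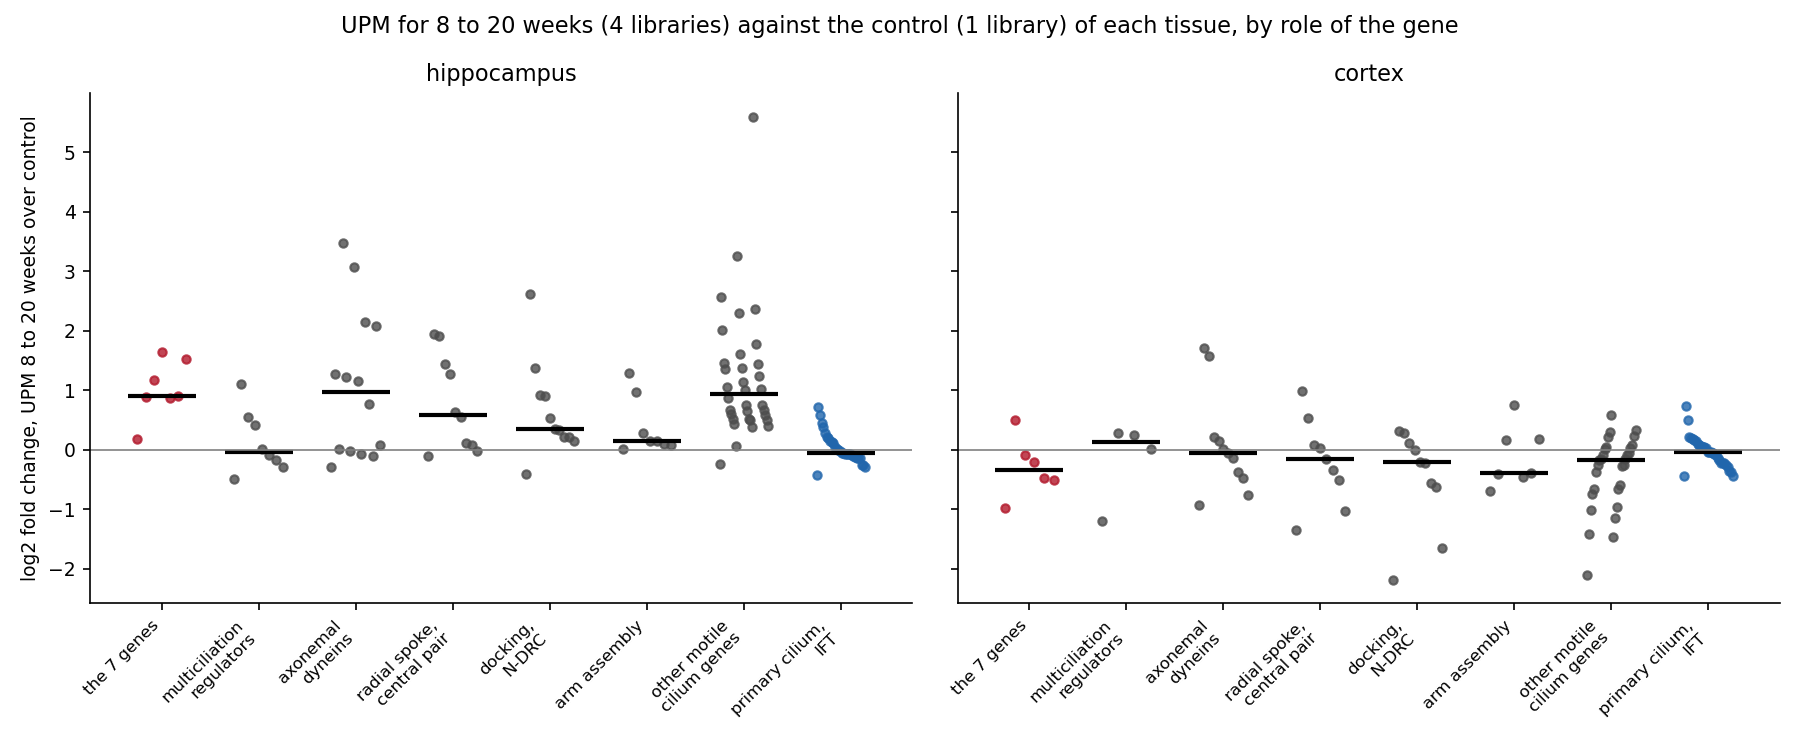
Log2 fold change of 8 to 20 weeks of UPM (4 libraries) over the control (1 library) in hippocampus (left) and cortex (right), 1 point per gene tested, by role, with the median as a bar. The medians in hippocampus lie above 0 for the 7 genes and the structural lists and near 0 for primary cilium genes; no point passed the test.

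Genes of the choroid plexus, the secretory epithelium in the ventricles that itself carries cilia, were also high in hippocampus at 8 to 20 weeks. The summed level of 18 choroid plexus genes was 2624 to 6081 CPM in hippocampus at 8 to 20 weeks, with all 18 detected in each library, against 208 CPM in the hippocampal control, with 15 detected. In cortex it was 268 to 477 CPM at 8 to 20 weeks, with 16 or 17 detected, against 1705 CPM in the control. Ttr, the thyroid hormone carrier, is the most abundant choroid plexus mRNA. Its log2 fold change, 8 to 20 weeks over control, was 6.57 ± 0.64 in hippocampus and -4.14 ± 0.56 in cortex. With 1 control library per tissue, a choroid plexus gene could enter these fits through exposed libraries in which it was high. Otx2, for example, had 5 counts in the hippocampal control and 113 to 177 counts at 8 to 20 weeks. Calls of choroid plexus genes in these fits add nothing and are left out. The part of choroid plexus in the fold changes of the 7 genes was not tested.

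The 2 groups of genes did not always go together. The 3-day hippocampal library had the highest choroid plexus sum, 8754 CPM, and a sum of the 7 genes of 29.9 CPM, close to the 27.3 CPM of the hippocampal control with its 208 CPM. The 5-day library of hippocampus had 505 CPM and a sum of the 7 genes of 38.4 CPM, of which Ccdc153 gave 10.5 and Rarres2 10.9 CPM. The 3-day cortical library, with 5718 CPM, had the highest sum of the 7 genes in cortex, 49.5 CPM. The sums of the 7 genes were 42.2 to 63.4 CPM in hippocampus at 8 to 20 weeks and 18.1 to 26.8 CPM in cortex at 8 to 20 weeks, and 25.8 CPM in the cortical control.

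**Figure D4:**
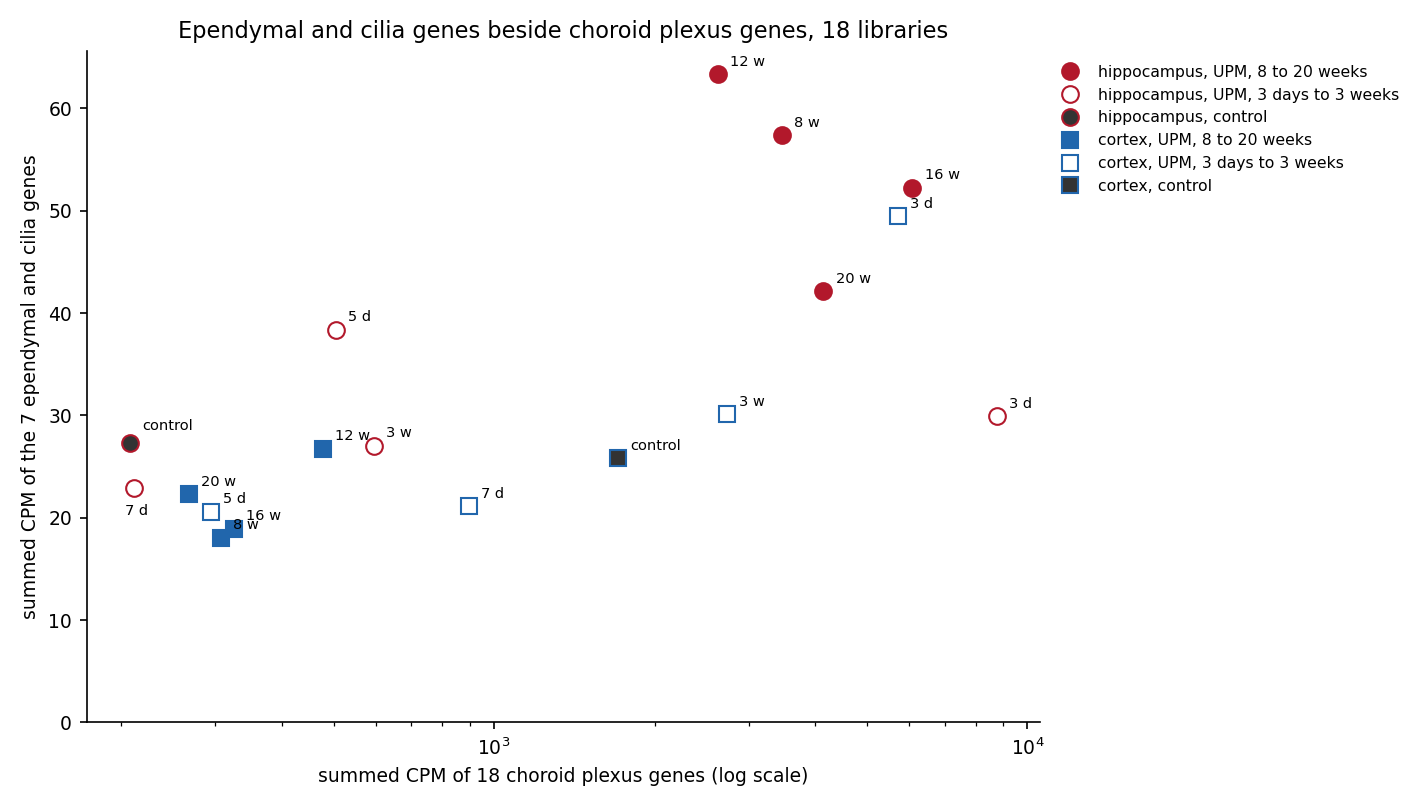
Summed CPM of the 7 genes (vertical axis) against the summed CPM of 18 choroid plexus genes (horizontal axis, log scale) in each library, circles for hippocampus and squares for cortex. The hippocampal libraries of 8 to 20 weeks lie at 2624 to 6081 and 42.2 to 63.4 CPM, and the 3-day hippocampal library lies far right at 8754 CPM with 29.9 CPM of the 7 genes.

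Markers of other cells and regions varied as well, each given here for hippocampus at 8 to 20 weeks and its control. Genes of striatum, which also borders the lateral ventricle, summed to 170.4 to 306.9 CPM, against 132.8 CPM in the control, and genes of thalamus and habenula to 112 to 357 CPM, against 103 CPM. In both lists, and in the astrocyte list below, all 4 libraries were above the control. Of 13523 single genes 20.6% showed this pattern, but how often sums of genes do so, in either direction, was not counted. Hippocampal neuron genes summed to 552 to 847 CPM, against 923 CPM, so all 4 libraries were below the control. Cortical neuron genes summed to 753 to 1968 CPM, against 769.9 CPM, and hypothalamic genes to 4.19 to 80.0 CPM, against 9.61 CPM. Genes of meningeal fibroblasts summed to 156 to 688 CPM, with all 10 detected, against 238 CPM in the control with 9 detected. Genes of the subventricular zone and immature neurons summed to 166 to 220 CPM, against 205 CPM, and astrocyte genes to 4503 to 4783 CPM, against 4439 CPM. In cortex the striatal sum was 281 to 1541 CPM at 8 to 20 weeks, against 719.8 CPM in the control. The part of these markers in the values of the 7 genes was not tested.

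Airway and nasal epithelium is another ciliated tissue, and the dust was given through the nose. Its 8 genes summed to 0.121 to 1.36 CPM in hippocampus at 8 to 20 weeks, against 0.703 CPM in the control, and to 0.358 to 0.773 CPM in cortex at 8 to 20 weeks, against 0.891 CPM in the control. Higher sums stood in 3 libraries of the other set: 38.4 CPM (204 counts) in hippocampus at 5 days, 19.9 CPM (151 counts) in cortex at 5 days and 8.84 CPM (67 counts) in cortex at 3 weeks. At 5 days Obp2a, an odorant-binding protein gene, gave 202 of these counts in hippocampus and 139 in cortex, and at 3 weeks Omp, a gene of olfactory neurons, gave 47 in cortex; both were picked after their values were seen. The 5-day hippocampal library is also the one with 10.5 CPM of Ccdc153, while the 5-day cortical library had 0.396 CPM. The part of nasal RNA in these values was not tested.

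The 8 genes most like the 7 in their profile over 18 libraries were chosen by the smallest root mean square difference of log2 CPM, centred on the mean of each tissue, from the mean profile of the 6 genes with a mean of at least 20 counts per library. Among 12316 genes these were Fancm (0.321), Lrrc48 (0.323), Elovl1 (0.329), Zfp507 (0.332), Tor3a (0.333), Ptrf (0.334), Plxnb2 (0.334) and H2-K1 (0.338), against a median of 0.573 over all genes compared. The profile itself had a root mean square of 0.478, and it includes Dnaaf1, whose counts are shared with Taf1c. Lrrc48, a part of the N-DRC, was the only gene of the 8 in the cilium lists, with a mean of 6.58 CPM in hippocampus at 8 to 20 weeks against 3.52 CPM in the hippocampal control. Among the 7 genes, Foxj1 (0.427) and Rsph1 (0.443) were nearest to the mean of the others, and Tmem212 (1.15) and Dnaaf1 (1.14) farthest.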

How the data were processed

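Hippocampus and cortex were profiled with QuantSeq 3′ mRNA sequencing, per the labels' protocols. The authors deposited raw counts per gene symbol. The submitters' processing notes name Bowtie2, bedtools, edgeR and the build mm10, while roles, versions, annotation and strand setting are not given in the sources used here. Each table had 23282 lines. A symbol that stood on several lines was added up to 1 value, giving 23238 symbols. A spreadsheet-type change of 27 symbols into dates was found in 2 tables; these symbols were read from the other tables, whose lines otherwise match line for line.

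Counts were scaled with TMM, filtered with filterByExpr and tested over all genes by quasi-likelihood (glmQLFTest in edgeR 4.0.16, R 4.3.3), with Benjamini-Hochberg adjustment over all genes tested and a threshold of 0.05. The steps were tested on simulated data. Fold changes have approximate standard errors, from the F statistic. Tissue was compared with exposure time as a factor, and exposure with tissue as a covariate. Nothing says which libraries share mice, so a p-value reflects the spread of single libraries at different times, which may be technical. Poisson intervals cover counting error only. The members and lists were chosen with earlier results of these data known. The 7 genes were followed in every comparison, but for some comparisons only part of their values is printed. Of the lists, up to 3 genes of smallest p are named, and 8 genes of like profile are named too. The levels of Hydin, Dnah9, Obp2a and Omp were added after values were seen. So were the splits by set of libraries and the comparisons with the control of 1 tissue. Alternatives were DESeq2 1.42.0, scaling by RLE or by totals, testing unfiltered genes, each library left out, and exposure time as a block (limma 3.58.1).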

Additional observations from a re-analysis of the deposited data

Results flagged for a closer look

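Foxj1, Rsph1 and Dynlrb2 stood out because all 4 hippocampal libraries of 8 to 20 weeks were above the hippocampal control while all 4 cortical ones were below the cortical control. The difference of the log2 fold changes, hippocampus minus cortex, was 1.37 for Foxj1, 1.41 for Rsph1 and 2.50 for Dynlrb2. Tested with edgeR, none of these differences passed (adjusted p = 0.619, 0.629 and 0.556), and each rests on 1 control library per tissue. The summed level of 18 choroid plexus genes at 8 to 20 weeks was also above the control in hippocampus and below it in cortex.

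Rarres2 in the long-term cortical libraries had 1 high value, 8.58 CPM at 3 weeks, against 2.64 to 4.30 CPM in the other 4. This was 1 of 14 groups examined for a value far from the rest, of which chance gives about 1 in 20. The 3-week library belongs, by its column name, with those of 3 to 7 days, whose Rarres2 level in cortex was 5.41 to 10.6 CPM.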

How the results depend on the processing

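Fold changes of the 7 genes kept their direction and side of the threshold in 285 of 304 comparisons with another setting and in 623 of 674 with a library left out. For hippocampus against cortex, 1 of the genes was called; 2 were called with DESeq2, without the filter, or without the replicate block, 5 in the control and 8 to 20 week libraries and 0 at 3 days to 3 weeks, and leaving out a library gave 0 to 2. At 3 days to 3 weeks Rsph1 (-0.65), Dynlrb2 (-0.22) and Rarres2 (-0.048) changed sign. In the control and 8 to 20 week libraries leaving out a library gave 4 to 6. For long-term against short-term UPM it gave 0 to 1 in each tissue. For UPM against control, total counts turned Rsph1 (-0.027) and Dnaaf1 (-0.0086), and exposure time as a replicate block turned Foxj1 (0.18), Tmem212 (-0.58) and Dnaaf1 (-0.11). Libraries of the 2 tissues are matched by exposure time and column-name set, and nothing says whether they share mice; deviations of same-time libraries correlated by -0.177 to 0.217, and those of different times by -0.231 to 0.203. The cause of these changes was not tested.

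With a library left out, values also changed sign over these ranges: Dnaaf1 -0.10 to 0.36 between tissues; Rsph1 -0.21 to 0.34, Dynlrb2 -0.32 to 1.15, Foxj1 -0.50 to 0.53 and Dnaaf1 -0.13 to 0.27 for UPM against control; Foxj1 -0.48 to 0.87, Ccdc153 -0.081 to 1.63, Rsph1 -0.51 to 0.88, Dynlrb2 -0.98 to 1.51 and Rarres2 -0.21 to 1.16 for 8 to 20 weeks against control. Without the control of 1 tissue, exposure is compared with the control in the other tissue alone. All negative ends for 8 to 20 weeks against control came from the fit without the hippocampal control, so they describe cortex. For long-term against short-term the range in hippocampus was -0.068 to 0.56 for Rarres2. In cortex the ranges were Rsph1 -0.65 to 0.22, Dynlrb2 -0.95 to 0.58, Foxj1 -0.15 to 0.86, Ccdc153 -0.16 to 1.68 and Dnaaf1 -0.37 to 0.11. Those of the difference between tissues were Ccdc153 -1.02 to 1.95 and Foxj1 -0.41 to 0.60.

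Over all genes, hippocampus against cortex gave 2427 calls, and 636 at 3 days to 3 weeks; the control and 8 to 20 week libraries gave 2797, and 1782 or 1803 without a 12-week library. Long-term against short-term in hippocampus gave 38 calls with TMM, 1 with RLE, 607 with total counts, 1154 with DESeq2 and 256 without the filter, and in cortex 0, against 726 with DESeq2 and 60 without the filter. The tissue difference of that contrast gave 0 calls and 25 with DESeq2. For 8 to 20 weeks against control, both tissues gave 0 calls, and 1 or 4 without a control. DESeq2 gave 23 in place of 3 in hippocampus (0 to 10 with a library left out) and 41 in place of 16 for the difference between tissues. Between tissues, 1121 genes were higher and 1306 lower in hippocampus, and 1433 and 972 with total counts. In the control and 8 to 20 week libraries the split was 1327 and 1470, and 1895 and 1005 with total counts. Depth limits Tmem212, with 0 counts in 5 libraries.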

Other observations

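Of 10 regulators in the tables that act before or beside Foxj1 in multiciliated cells, 8 could be tested for 8 to 20 weeks of UPM against the control in hippocampus, and 4 of these had a positive fold change. None passed, and a difference from the 7 genes was not tested. Myb (1.11 ± 0.83), Trp73 (0.55 ± 0.47) and Rfx4 (-0.29 ± 0.26) had the smallest p of the list, with edgeR adjusted p of 0.847, 0.862 and 0.869. Trp73 had 32, 21, 22 and 23 counts at 8, 12, 16 and 20 weeks in hippocampus, against 17 counts in the hippocampal control, and 0 to 8 counts in the cortical libraries.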
